A study of Mus musculus with 14 samples.

Results

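The uroplakins are a family of 5 membrane protein genes, Upk1a, Upk1b, Upk2, Upk3a and Upk3b, out of the 21853 genes measured in the ovaries and uteruses of aged mice. The members were chosen by family name with the FPKM of these 14 libraries, and so the levels and differences of both groups in both tissues, already in view, so what follows on the members is a description of their levels, and no p-value is given for any of them. All 7 mice were female C57BL/6J mice aged 28 weeks, with no transgene or deletion named in the sources, and all were given 10 IU of pregnant mare serum gonadotropin and then 10 IU of human chorionic gonadotropin after 48 h. The old treatment (OT) group of 4 mice received AMSC-CM, the medium conditioned by human amniotic membrane-derived mesenchymal stem cells, in 6 tail vein injections of 1 µL/g at intervals of 4 days, and the old control (OC) group of 3 mice received saline intravenously. Bulk RNA-seq of ribosomal-RNA-depleted total RNA gave 1 ovary and 1 uterus library per mouse, and the values are FPKM, read fragments of a gene divided by its transcript length and by the number of mapped fragments. The part of the uterus that was taken is not given in the sources used here. In bulk tissue, fewer cells of a type and less RNA per cell cannot be told apart.

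Uroplakins are best known from the urinary bladder, where they build the rigid plaques that cover the luminal face of umbrella cells, the outermost cells of the urothelium. Upk1a and Upk1b encode tetraspanins, proteins that cross the membrane several times. Upk2, Upk3a and Upk3b encode partners that cross it once. UPK1A pairs with UPK2 and UPK1B pairs with UPK3A, and the partners leave the endoplasmic reticulum once paired. UPK3B can also pair with UPK1B, and Upk3b is a known marker of mesothelium, the flat epithelium that lines the body cavity and covers the ovary, the oviduct and the uterus.

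The 5 genes lie on 5 chromosomes of GRCm38, and none overlaps another annotated gene. Upk1a (ENSMUSG00000006313.5) spans chr7:30603092-30612847 on the minus strand with 8 exons, and Upk1b (ENSMUSG00000049436.5) spans chr16:38773184-38800328 on the minus strand, also with 8 exons. Upk2 (ENSMUSG00000041523.3) is the smallest, with 5 exons in chr9:44452715-44454976 on the minus strand. Upk3a (ENSMUSG00000022435.6) has 6 exons in chr15:85017141-85022547 and Upk3b (ENSMUSG00000042985.7) has 6 exons in chr5:136038496-136046487, both on the plus strand. A paralog that is not a member, Upk3bl, begins 8005 bases downstream of Upk3b.

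Upk1a, Upk3a and Upk3b, 3 of the 5 members, have an entry in the RefSeq promoter table for GRCm38.p6. Their sequences are shown as those of the members with an entry, and their patterns were unlike: Upk3b was present in all 14 libraries, Upk1a was mainly an ovary transcript, and Upk3a was near 0 outside 1 uterus. Each is the stretch just upstream of the transcript start, 5′ to 3′ on the gene's strand. It covers 250 bases for Upk3a (chr15:85016891-85017140, plus) and Upk3b (chr5:136038246-136038495, plus). For Upk1a (chr7:30612848-30612984, minus) it covers 137 bases, because the annotated transcript begins 113 bases before the RefSeq start. Capitals mark matches, on either strand, to 1 of 6 short motifs: TATAAA, the classical core promoter element, GGGCGG, the box of Sp and KLF factors, AGGTCA, a half-site of nuclear receptors, AGATAA, the site of zinc finger factors named after it, TGTTTAC, a FOXA site, and AACCGGTT, the site of grainyhead-like factors.
Upk1a: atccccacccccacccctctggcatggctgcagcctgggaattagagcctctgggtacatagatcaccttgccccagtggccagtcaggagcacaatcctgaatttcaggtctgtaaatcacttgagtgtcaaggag
Upk3a: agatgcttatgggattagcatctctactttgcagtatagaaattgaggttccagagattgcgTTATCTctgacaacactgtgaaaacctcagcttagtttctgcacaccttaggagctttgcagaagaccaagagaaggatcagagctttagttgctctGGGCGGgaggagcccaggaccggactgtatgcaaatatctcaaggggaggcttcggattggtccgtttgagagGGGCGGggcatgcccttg
Upk3b: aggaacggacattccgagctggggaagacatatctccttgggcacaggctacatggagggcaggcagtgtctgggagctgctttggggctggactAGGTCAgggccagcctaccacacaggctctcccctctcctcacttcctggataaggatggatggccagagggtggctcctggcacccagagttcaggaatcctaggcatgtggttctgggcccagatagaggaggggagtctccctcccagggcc

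The Upk3a stretch held GGGCGG beginning 91 and 18 bases before the start, and AGATAA on the opposite strand beginning 188 bases before it. The Upk3b stretch held AGGTCA at 155 bases before the start. No 2 of these matches overlapped, and none of the 6 motifs was in the Upk1a stretch. Over the 250 bases before the start in each of 32851 promoters, GGGCGG was found in 32.7%, AGGTCA in 14%, TATAAA in 12.4%, AGATAA in 9.99%, TGTTTAC in 3.17% and AACCGGTT in 0.116%. These matches are letters in a window and were not tied to any measured binding. GC made up 60.8% of the Upk3b stretch, 54.7% of that of Upk1a and 49.6% of that of Upk3a.

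The tissue labels were checked against marker lists. The summed FPKM of 10 granulosa, theca, luteal and germ cell genes was 1042 to 1512 in the ovary libraries and 6.07 to 11.8 in the uterus libraries, and summed smooth muscle FPKM was higher in every uterus (7810 to 14560) than in any ovary (888 to 2773). The ovary libraries also carried 646 to 1161 summed FPKM of oviduct genes, with Ovgp1, the oviduct-specific glycoprotein, between 424 and 942 FPKM. The uterus of OT mouse 1 stood apart from the other 6 uteruses. Its 8 adipocyte genes summed to 11245 FPKM against 65.6 to 252 in OC and 1219 to 2249 in the other OT uteruses. Its 14 uterine epithelium genes summed to 394 FPKM against 1084 to 2814 in the other 6. Since several members were highest in that library, the uterine estimates of OT minus OC and the ratios of levels are given with and without it. Uterine ranges and group means include it. The relative depth of the 14 libraries, read from steps between low values, ranged from 0.853 to 1.189, but the number of reads behind each value is unknown.

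In the ovary, 3 members were present in every library. The order of their median levels over 7 ovaries was Upk1a (17.1 FPKM), Upk3b (16.2 FPKM) and Upk1b (11.3 FPKM), and the ranges overlapped between each pair of neighbours, at 8.97 to 23.2, 12.3 to 24.9 and 8.63 to 16.6 FPKM. Upk2 was listed at 0 in all 7 ovaries. Upk3a was listed at 0 in 6 of them and at 0.344 FPKM in OT3. In the uterus, the order of the medians was Upk3b (13.9 FPKM), Upk1b (6.11 FPKM) and Upk1a (1.06 FPKM), with ranges of 8.60 to 60.8, 3.39 to 50.2 and 0.140 to 41.5 FPKM. Upk2 and Upk3a had medians of 0 there. Upk3b exceeded Upk1b in every one of the 14 libraries.

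**Figure D1:**
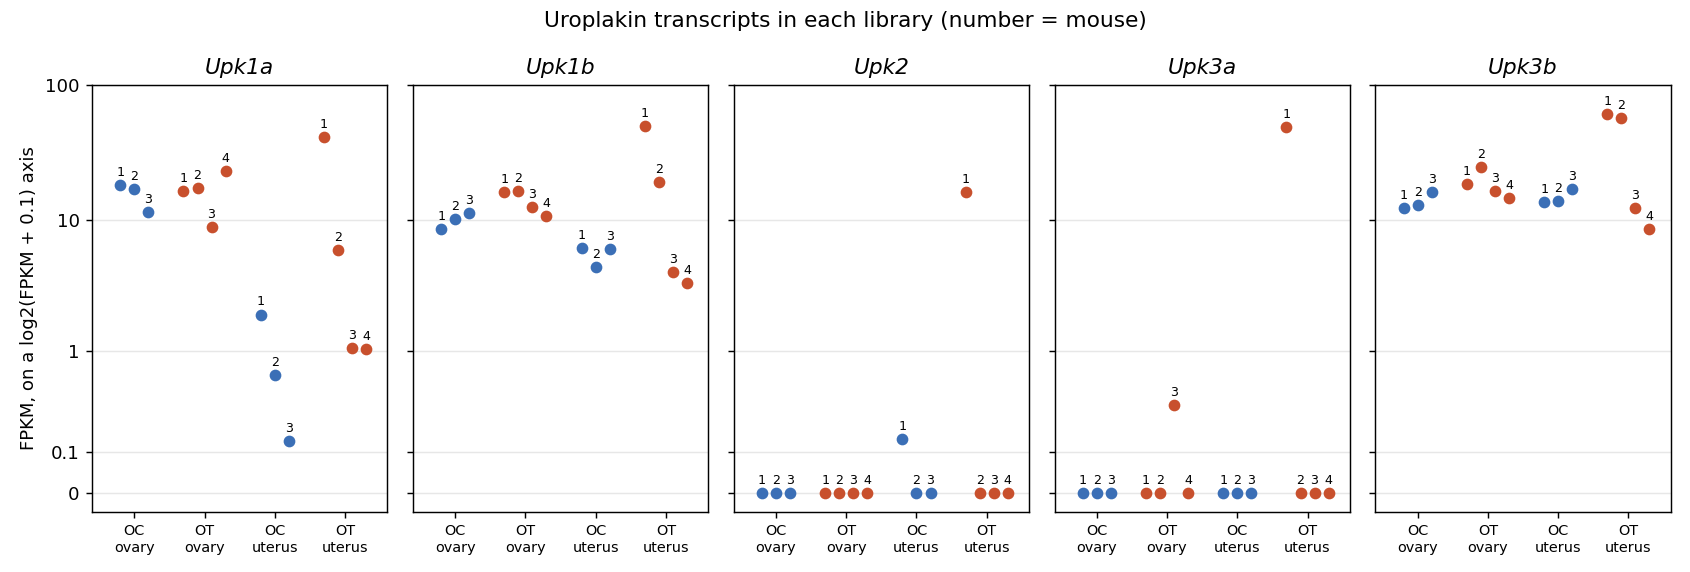
Level of each uroplakin gene in the 14 libraries, in FPKM on a log2(FPKM + 0.1) axis. Each point is 1 library, numbered by mouse, in blue for OC and in orange for OT, and no error bar is drawn. Upk2 and Upk3a lie at or near 0 except in the OT1 uterus, where they reached 16.2 and 48.7 FPKM, while Upk3b is above 8 FPKM in every library.

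Upk2 and Upk3a, the partner proteins of the bladder plaque, were near 0 in every library but 1. In the OC uteruses Upk2 was 0.149, 0 and 0 FPKM, and in the OT uteruses it was 16.2, 0, 0 and 0 FPKM. Upk3a was 0 FPKM in the 3 OC uteruses and 48.7, 0, 0 and 0 FPKM in the 4 OT uteruses. Both were therefore measured above 0.5 FPKM in the OT1 uterus alone, and the other OT uteruses lay within the OC values. In that library Upk3a was higher than 91.9% of all genes and Upk2 higher than 75.8%. The 10 genes checked that are used by every cell, among them Actb and Tbp, were never at 0 in any library. Their lowest value was 6.26 FPKM, for Tbp, so they do not show what a 0 means for a low gene. The OT1 ovary, from the same mouse, was listed at 0 for both Upk2 and Upk3a.

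In the OT1 uterus all 5 uroplakins were present together. Upk3b stood at 60.8 FPKM, Upk1b at 50.2, Upk3a at 48.7, Upk1a at 41.5 and Upk2 at 16.2. FPKM is a level per transcript length, so these can be set side by side: Upk1b was 1.03 times, Upk1a 0.853 times and Upk2 0.332 times the level of Upk3a, the partner of UPK1B. In no other library were both members of the UPK1A and UPK2 pair above 0.2 FPKM.

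Genes with known roles in umbrella cells were described from a list of 15 genes. Snx31, a sorting nexin that binds uroplakins on their way to degradation, was 12.3 FPKM in the OT1 uterus and at most 0.0688 FPKM in the other 6 uteruses. Krt20, the keratin of the umbrella cell layer, was 6.74 FPKM there and at most 0.236 FPKM in the others. Psca, a surface antigen of urothelium and stomach, was 32.1 FPKM there, 0 in the 3 OC uteruses and 0.218 to 1.20 FPKM in the other OT uteruses. These 3 genes thus had the pattern of Upk2 and Upk3a, with OT1 far above the rest. Foxa1, a transcription factor of the urothelium, was 3.53 FPKM in the OT1 uterus, 0.125 FPKM in OT4 and 0 in the others. Shh, which basal urothelial cells secrete, is from a separate list of 8 basal urothelial genes. It was 2.49 FPKM in the OT1 uterus and at most 0.0807 FPKM in the others. The rest of the basal list did not share this pattern: of its 7 genes tested in the uterus, 0 were highest in OT1 and 1 was lowest in it.

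Not all genes of the list were high in that library. Of the 14 umbrella and intermediate cell genes tested in the uterus, 9 were highest in OT1 and 4 were lowest in it, where 31.0% and 32.5% of all 14151 tested genes were. But 5 of the 14, Foxa1, Grhl3, Krt20, Psca and Snx31, reached the filter of a mean of 0.5 FPKM only through OT1. Their place among the 9 was thus set by the filter. Of the other tested genes, Krt7, Pparg, Gata3 and Cldn4 were highest in OT1. Ehf, Elf3, Klf5 and Tmprss4 were lowest in it, and Cldn8 was neither. Ehf, an epithelial transcription factor, was 9.59 FPKM in the OT1 uterus and 42.0 to 59.6 FPKM in the others. Vgll1, a cofactor of TEAD factors, was at 0 in all 7 uteruses. Ehf, Elf3, Klf5 and Tmprss4 are also expressed by uterine epithelium, and the summed level of uterine epithelium genes was lowest in OT1. The part of uterine epithelium RNA in the levels of these genes was not tested.

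Over the whole list the summed level was 141 to 168 FPKM in the OC uteruses and 155 to 228 FPKM in the OT uteruses, with OT1 the highest. Adipocyte genes moved with the same library: Adipoq, the adipocyte hormone adiponectin, was 777 FPKM in the OT1 uterus against 117 to 251 in the other OT uteruses and 8.40 to 28.6 in OC. Of the 8 adipocyte genes, 8 were highest in OT1. The part of the adipocyte RNA and of the uterine epithelium RNA in the uroplakin levels was not tested.

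The keratins of stratified epithelium followed another order of libraries. Krt5, a keratin of basal cells in bladder, vagina and skin, was 0.457, 2.80 and 0.357 FPKM in the OC uteruses and 37.1, 11.7, 299 and 159 FPKM in the OT uteruses. Krt13, a keratin of the upper layers of mucosal epithelium, was 1.86, 5.10 and 0.423 FPKM in OC and 29.7, 19.6, 287 and 132 FPKM in OT. Every OT uterus was above every OC uterus for both, and OT3 and OT4 were the highest. Upk2 and Upk3a were at 0 in OT3 and OT4, where Upk1a was 1.06 and 1.04 FPKM. Trp63, the transcription factor of basal cells, had the same order, with 4.4, 0.776, 10.1 and 4.90 FPKM in OT against 0.331, 0.774 and 0.263 FPKM in OC. Ivl, which encodes the envelope protein involucrin, was instead highest in OT1, at 9.18 FPKM against at most 0.439 FPKM elsewhere. Krt1, a keratin of skin, was at most 0.256 FPKM in every uterus.

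**Figure D2:**
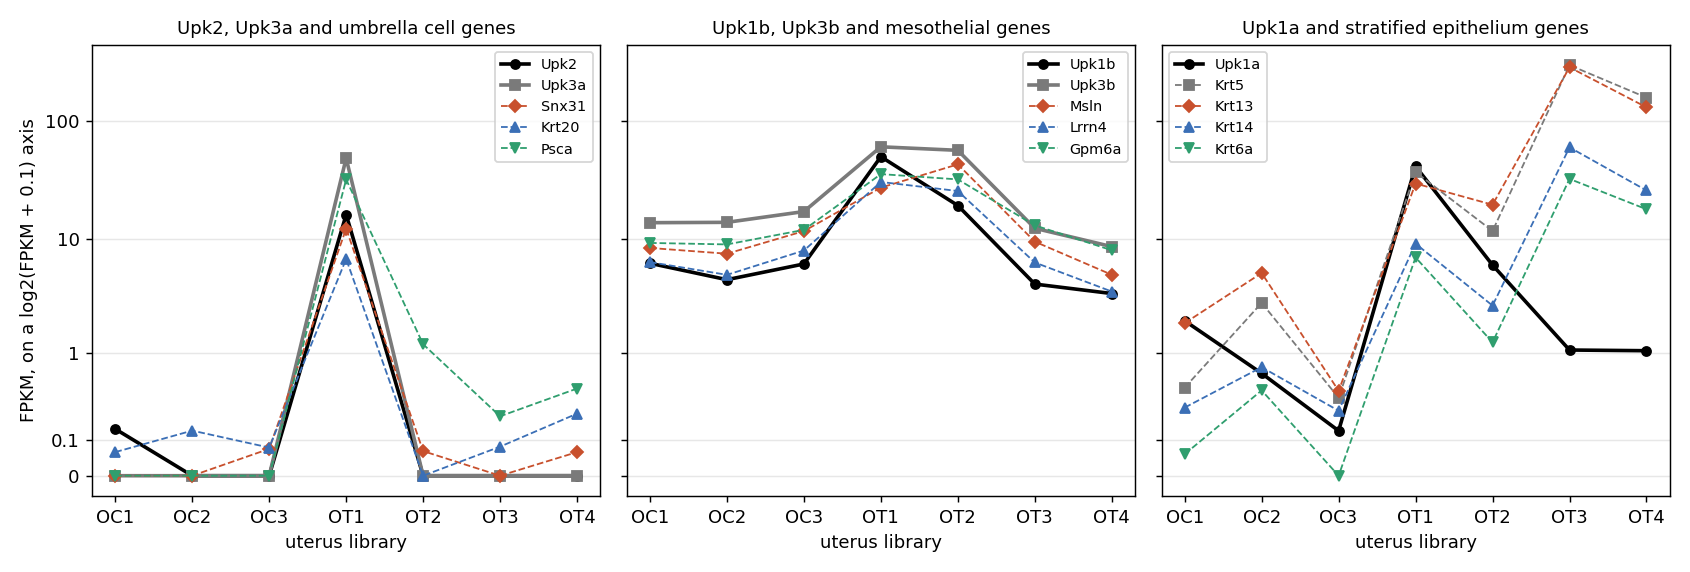
Levels in the 7 uterus libraries, in FPKM on a log2(FPKM + 0.1) axis, for 3 sets of genes, with uroplakins drawn as thick solid lines and companion genes as dashed lines. The left panel shows Upk2 and Upk3a with Snx31, Krt20 and Psca high in OT1, the middle panel shows Upk1b and Upk3b with Msln, Lrrn4 and Gpm6a high in OT1 and OT2, and the right panel shows Upk1a highest in OT1 while Krt5, Krt13, Krt14 and Krt6a were highest in OT3. Lines join libraries for reading only.

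Upk1b and Upk3b, the tetraspanin and the partner found in mesothelium, were present in all 14 libraries. Upk3b was 12.3, 13 and 16.2 FPKM in the OC ovaries and 18.5, 24.9, 16.6 and 14.7 FPKM in the OT ovaries. In the uterus it was 13.8, 13.9 and 17.1 FPKM in OC and 60.8, 56.8, 12.4 and 8.60 FPKM in OT. The groups overlapped in both tissues: in the uterus OT1 and OT2 were above every OC library, and OT3 and OT4 were below every OC library. The uterine group means were 14.9 ± 1.92 FPKM (SD, n = 3) in OC and 34.6 ± 28 FPKM (SD, n = 4) in OT.

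Upk1b was 8.63, 10.2 and 11.3 FPKM in the OC ovaries and 16.1, 16.6, 12.6 and 10.7 FPKM in the OT ovaries. In the uterus it was 6.19, 4.47 and 6.11 FPKM in OC and 50.2, 19.3, 4.09 and 3.39 FPKM in OT. The order of the libraries was like that of Upk3b, with OT1 and OT2 the highest uteruses and OT3 and OT4 the lowest. The spread among the 4 OT uteruses (19.2 ± 21.9 FPKM, SD) was far wider than that among the 3 OC uteruses (5.59 ± 0.971 FPKM, SD).

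Several mesothelial genes were also highest in OT1 and OT2. Msln, which encodes mesothelin, was 8.38, 7.48 and 11.7 FPKM in the OC uteruses and 27.4, 43.2, 9.49 and 4.93 FPKM in the OT uteruses. Lrrn4, a leucine-rich repeat protein of mesothelium, was 6.33, 4.92 and 7.97 FPKM in OC and 30.6, 25.6, 6.29 and 3.53 FPKM in OT. OT1 and OT2 were again above every other uterus, and OT4 was the lowest. Of the 14 mesothelium and ovarian surface epithelium genes tested in the uterus, 7 had OT1 and OT2 both above the other 5 libraries, a pattern of 10.6% of all tested genes. The other 7 did not have it. Wt1, a transcription factor of mesothelium that uterine stroma and smooth muscle also express, ran from 38.2 to 48.3 FPKM and was lowest in OT1. Calb2, the calcium-binding protein calretinin, was lowest in OT1 too, at 0.352 FPKM against 1.84 to 4.49 FPKM in the other 6. Aldh1a2, an enzyme of retinoic acid synthesis, had a log2 difference between OT and OC of -0.62, and the keratin genes Krt8 and Krt18 had -0.38 and -0.35, none of them called. The summed level of the list was 302 to 398 FPKM in the OC uteruses and 257 to 559 FPKM in the OT uteruses. Itln1, also on the list, was 0 in 6 uteruses and 0.118 FPKM in OT4.

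Ratios within a library set the members against each other without the total mattering. The ratio of Upk3b to Upk1b was 1.15 to 1.5 in the 7 ovaries and 2.23 to 3.11 in 6 uteruses, so that those ranges did not overlap. In the OT1 uterus it was 1.21, inside the ovary range. The ratio of Upk3b to Lrrn4 in OT1 lay inside the range of the other uteruses (1.96 to 2.82), whereas that of Upk1b to Lrrn4 was 1.64 in OT1 and 0.651 to 0.977 in the other 6. The ratio of Upk3b to Msln was 1.28 to 1.73 in the ovaries, 1.30 to 1.86 in 6 uteruses and 2.22 in the OT1 uterus. Relative to Lrrn4, Upk1b alone was thus out of range in OT1, whereas relative to Msln Upk3b was out of range as well.

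**Figure D3:**
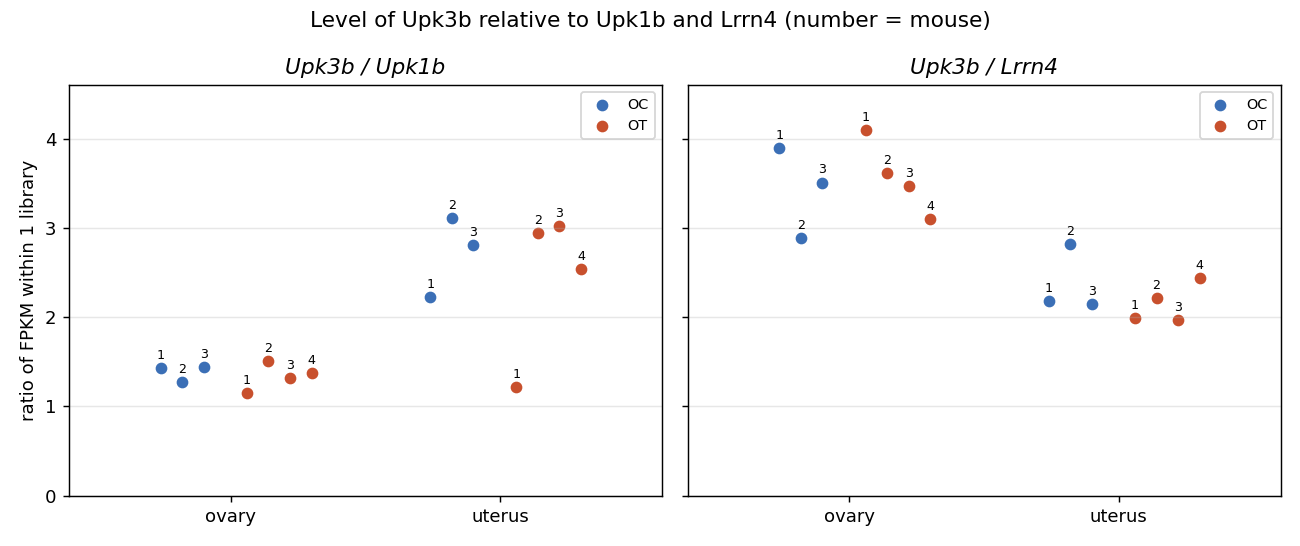
Ratio of the FPKM of Upk3b to that of Upk1b (left) and of Lrrn4 (right) within each library, on a linear axis that starts at 0. Points are single libraries numbered by mouse, blue for OC and orange for OT. In the left panel the OT1 uterus, at 1.21, lies with the ovaries and apart from the other 6 uteruses, at 2.23 to 3.11.

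Upk1a, the tetraspanin partner of UPK2, was mainly an ovary transcript. It was 18.4, 17.1 and 11.5 FPKM in the OC ovaries and 16.6, 17.5, 8.97 and 23.2 FPKM in the OT ovaries, with group means of 15.7 ± 3.67 FPKM (SD, n = 3) and 16.6 ± 5.84 FPKM (SD, n = 4). In the uterus it was 1.95, 0.636 and 0.140 FPKM in OC and 41.5, 5.97, 1.06 and 1.04 FPKM in OT. The OC ovaries lay inside the range of the OT ovaries, and in the uterus OT1 and OT2 were above every OC library while OT3 and OT4 lay between OC1 and OC2. Its partner Upk2 was at 0 in all 7 ovaries, so the pair was not seen together there.

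The difference between tissues was largest for Upk1a. Within a mouse, Upk1a was lower in the uterus than in the ovary in 6 of 7 mice, by a median log2(FPKM + 0.1) difference of -3.17 and at most -5.59. In OT1 it was higher in the uterus, by 1.32. Upk1b was lower in the uterus in 5 of 7 mice, with a median of -0.87. Upk3b was higher in the uterus in 5 of 7 mice, with a median of 0.10. In the fit of all 14 libraries by limma, uterus minus ovary was -3.16 ± 0.74 (SE) for Upk1a, -0.59 ± 0.49 for Upk1b and 0.27 ± 0.39 for Upk3b on the log2(FPKM + 0.1) scale. The last 2 estimates lay less than 2 SE from 0. This fit had no term for the mouse, so its SEs treat the ovary and uterus of a mouse as independent. With the mouse as a block, the estimates for Upk1a and Upk1b were the same. They had to be, since every mouse gave both tissues, and the SEs of that fit are not given here. Leaving out 1 mouse at a time gave -3.69 to -2.75 for Upk1a, -0.92 to -0.38 for Upk1b and 0.06 to 0.47 for Upk3b. The lowest values for Upk1a and Upk1b came without OT1.

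Of the 8 genes of the oviduct list, Ovgp1, Foxj1, Dnah5 and Dnali1 were higher in every ovary than in any uterus. Tubb4b, Wnt5a and Pkhd1l1 overlapped between the tissues, and Sox2 was at most 0.266 FPKM. Wnt5a was 25.9 to 40.3 FPKM in the ovaries and 27.6 to 78.8 FPKM in the uteruses. Foxj1, the master regulator of motile cilia, was 11.9 to 20.5 FPKM in the ovaries and 0.113 to 0.297 FPKM in the uteruses. The ratio of Upk1a to Foxj1 was 0.630 to 1.13 over the 7 ovaries, and OT3 was lowest for both genes. Dnah5 and Dnali1 were also lowest in the OT3 ovary, but Ovgp1 was lowest in OT1, at 424 FPKM. Wnt5a was highest in the OT3 ovary. In the OT1 uterus Foxj1 was 0.113 FPKM with Upk1a at 41.5 FPKM, so the level of Upk1a there was not accompanied by Foxj1. The part of oviduct tissue in the ovary values was not tested.

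The study asked what AMSC-CM changed in each tissue, and no uroplakin was called as different between OC and OT. A gene was called where the limma log2 difference was at least 1 in size and the unadjusted p at most 0.05. In the uterus, 0 of 5 members were called, where 2.23% of 14151 tested genes were called higher and 0.664% lower. The log2 differences, OT minus OC, were 2.59 ± 1.31 (SE) for Upk1a, 2.23 ± 2.2 for Upk3a, 1.40 ± 1.88 for Upk2, 0.96 ± 0.87 for Upk1b and 0.73 ± 0.69 for Upk3b. All 5 estimates were above 0, against a median of 0.01 over all tested genes. Upk2 and Upk3a passed the filter of a mean of 0.5 FPKM through OT1 alone, so they had to differ if they were tested at all. Without OT1 the estimates fell to 0.22 for Upk1b, 0.29 for Upk3b and 1.49 for Upk1a, and neither Upk2 nor Upk3a passed the filter. For 0 of 5 members was every OT uterus above every OC uterus, a separation that 6.46% of tested genes had.

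The call of Upk1a turned on the libraries and on the fit. It was called higher without OT3 (3.21 ± 1.35) or without OT4 (3.22 ± 1.33), and also when all 14 libraries shared 1 estimate of the spread (2.59 ± 1.04). With OT1 and OT2 both left out, a choice made after seeing the data, Upk1a fell to 0.69, under the size that a call needs. Upk1b was then -0.56 and Upk3b -0.52, so the direction of the Upk1b and Upk3b estimates rested on those 2 libraries.

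In the ovary, 0 of the 3 members that passed the filter were called, where 0.368% of 14415 tested genes were called higher and 0.0832% lower. Upk1b differed by 0.46 ± 0.17 (SE) and Upk3b by 0.41 ± 0.18, both under the size that a call needs. Upk1a differed by 0.03 ± 0.30. For 0 of these 3 was every OT ovary above every OC ovary, against 2.78% of tested genes. Msln was highest in the OT2 ovary (19.3 FPKM against 9.12 to 11.3 in the other 6), the library in which Upk3b and Upk1b were also highest. The difference between the tissues in OT minus OC, uterus minus ovary, was 2.56 ± 1.47 for Upk1a, 0.49 ± 0.98 for Upk1b and 0.31 ± 0.78 for Upk3b (SE). These SEs come from the same fit without a term for the mouse. Leaving out 1 mouse at a time gave 1.49 to 3.38 for Upk1a. Upk1b then ran from -0.16 to 0.92 and Upk3b from -0.11 to 0.71, both changing sign.

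**Figure D4:**
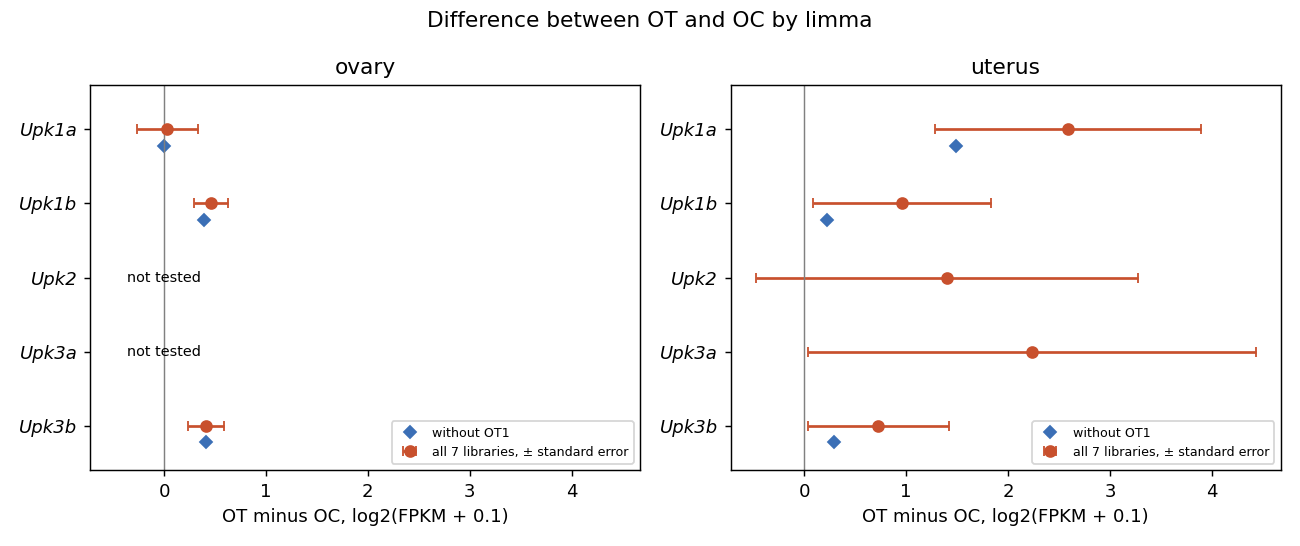
Difference between OT and OC for each uroplakin, in log2(FPKM + 0.1), in the ovary (left) and the uterus (right). Orange points with bars are limma estimates ± SE over 7 libraries, and blue diamonds are the estimates without mouse OT1. In the uterus the estimates run from 0.73 to 2.59, and Upk2 and Upk3a have no value without OT1.

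Across all genes, 0 passed a Benjamini-Hochberg adjusted p under 0.05 by limma in either tissue, while 1160 genes in the uterus and 650 in the ovary had an unadjusted p under 0.05. Counts for gene lists at the same cutoffs are read against 2.23% and 0.664% in the uterus and against 0.368% and 0.0832% in the ovary, and the lowest adjusted p by limma of any list gene was 0.357 in the uterus and 0.997 in the ovary. Of 14 tested umbrella and intermediate cell genes, 3 were called higher and 0 lower in the uterus: Psca (4.04), Grhl3 (3.11) and Pparg (2.40, log2 differences). Psca and Grhl3 were at 0 in OC and passed the filter only through OT, as 5 of the 14 did, so the OT mean of these had to be higher if they were tested. Pparg, a nuclear receptor of urothelium and of adipocytes, was 74.0 FPKM in OT1, 11.2 to 16.0 in the other OT uteruses and 2.82 to 4.33 in OC. Of 7 basal urothelial genes, 5 were called higher and 0 lower, among them Krt5 (6.22), Krt15 (5.02), Krt14 (4.88) and Trp63 (2.87). These are also genes of other stratified epithelia, and of 15 tested squamous genes 10 were called higher and 0 lower, led by Krt6a (5.43), Krt13 (5.30), Sprr1a (5.10) and Krt4 (4.11). The OC mean was under the 0.5 FPKM filter for 5 of the 7 basal genes, 4 of them called, and for 8 of the 15 squamous genes, 6 of them called, so their direction too was set by the filter.

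Of 12 genes of uroplakin sorting and vesicle traffic, 1 was called higher, Rab27b (1.28), a small GTPase of vesicles that carry uroplakins to the surface. Of 14 mesothelial genes, 1 was called higher, Bnc1 (1.05), and the median log2 difference was 0.44. Of 8 adipocyte genes, 8 were called higher, with a median log2 difference of 3.81. Of 14 uterine epithelium genes, 1 was called lower, Cldn3 (-1.23), and the median log2 difference was -0.53. None of the 5 oviduct, 8 smooth muscle, 7 uterine stroma or 3 ovarian cell genes tested in the uterus was called. In the ovary, 5 of 8 adipocyte genes were called higher, 0 of 8 umbrella and intermediate cell genes and 0 of 13 mesothelial genes.

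Other tetraspanins were compared because Upk1a and Upk1b belong to that family. Of 29 tetraspanin genes outside the uroplakins, 27 were tested in the uterus, with 1 called higher (Tspan12, 1.34), 1 called lower (Tspan11, -1.23) and a median of 0.22. Tspan12, a partner of the Frizzled 4 receptor, was also highest in OT1, at 37.5 FPKM against 3.88 to 10.7 FPKM in the other uteruses. Of the 27 genes, 10 were highest in OT1 and 6 lowest in it, where 31.0% and 32.5% of all tested genes were. In the ovary 1 of 27 was called higher, Cd37 (1.12), a tetraspanin of lymphocytes.

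The genes whose pattern was most like each member were taken by the root mean square difference of centred log2(FPKM + 0.1). Over the 7 uteruses and 14151 genes, Upk3b was nearest to Lrrn4 (0.163), Wnt2b (0.211) and Msln (0.257), and Upk1b to Lrrn4 (0.394), Upk3b (0.436) and Smpd3 (0.469). These distances are small beside the members' own spread about their means, which was 1.03 for Upk3b and 1.30 for Upk1b on the same scale. Upk2 was nearest to Snx31 (0.692), Otop1 (0.733) and Cox8b (0.759), and Upk3a to Ucp1 (0.770), Upk2 (0.778) and Snx31 (0.880). Ucp1, the uncoupling protein of brown adipocytes, was 210 FPKM in the OT1 uterus and at most 0.112 FPKM in the other 6, and the likeness of Upk3a, Upk2, Snx31 and Ucp1 to each other rests on that 1 library. For Upk1a the nearest were Acsm3 (0.842), Thrsp (0.880) and Otop1 (0.935). In the OT1 uterus Acsm3 was 41.0 FPKM, Thrsp 443 FPKM, Otop1 9.71 FPKM and Cox8b 340 FPKM. In the other uteruses they were at most 4.43, 38.7, 0.248 and 7.26 FPKM. The likeness of these genes to Upk1a and Upk2 thus also rests largely on OT1.

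Over all 14 libraries and 14557 genes, Upk3b was nearest to Msln (0.227), Gpm6a (0.294) and Ccl6 (0.304). Msln, which was near Upk3b in both sets of libraries, had a level between 4.93 and 43.2 FPKM. Upk1b was nearest to Cnr1 (0.463), Fabp3 (0.465) and Lilrb4a (0.465). For Upk1a the nearest were Cldn22 (0.847), 2010003K11Rik (0.888) and Gm12248 (0.960). For Upk2 they were Ctse (0.744), Upk3a (0.777) and Elovl3 (0.877), and for Upk3a they were Upk2 (0.777), Ucp1 (0.851) and Snx31 (1.16). Ctse and Elovl3 too were highest in the OT1 uterus, at 17.3 and 9.75 FPKM, against at most 0.597 and 0.315 FPKM in the other uteruses. Cldn22, a claudin, was like Upk1a in being present in every ovary, at 3.32 to 6.74 FPKM, and in the OT1 uterus, at 4.53 FPKM, but at most 1.28 FPKM in the other uteruses.

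Upk3bl, the paralog next to Upk3b, did not follow its neighbour. It was at most 0.475 FPKM in the ovaries, and in the uterus it was 0.298, 2.41 and 3.02 FPKM in OC and 1.58, 11.7, 1.65 and 5.70 FPKM in OT. It was higher in the uterus than in the ovary in 7 of 7 mice, and OT2, not OT1, was its highest uterus. Its log2 difference between OT and OC in the uterus was 1.37 ± 0.91 (SE), which was not called.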

How the data were processed

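The deposited values were FPKM per gene in 14 libraries, which the authors made from stranded total RNA reads after STAR 2.5 alignment against mm10, with Cufflinks 2.2.1 for the quantification. The identifiers of all 21853 genes were matched to symbols and positions in the GENCODE M21 annotation of GRCm38. No further scaling was applied. The authors tested with Cuffdiff on the reads, which were not used here. Instead, limma 3.58.1 (R 4.3.3, moderated with a trend) was run on log2(FPKM + 0.1) of the genes whose mean reached 0.5 FPKM, per tissue and over all 14 libraries. This scale understates changes of low genes. Tables and figures were made in Python 3.11.15 with pandas 2.3.3, numpy 2.4.6 and matplotlib 3.10.9.

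The members and gene lists were chosen with earlier results of these data known. Named genes were the members, called genes (at most 4 per list and tissue), defining markers of cell types, and the 3 genes nearest to each member. Foxj1, Ovgp1, Psca, Foxa1, Shh, Ehf, Vgll1, Itln1, Adipoq, Gpm6a, Calb2, Aldh1a2, Krt8, Krt18 and Ucp1 values were added once they had been seen. The same holds for Dnah5, Dnali1, Tubb4b, Wnt5a, Pkhd1l1 and Sox2. Each mouse gave both tissues, as the shared mouse names in the labels show, and deviations of the ovary and uterus of a mouse correlated at r of 0.09 to 0.265 over 7 mice, against -0.274 to 0.273 over 18 pairs of different mice, so the pairing rests on the labels. The alternatives were other pseudocounts and filters, a replicate block, 1 fit of both tissues and leaving out libraries. Since nothing beyond the mouse names was stated on batches, none could be examined. The higher calls of the uterine epithelium list are not reported here.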

Additional observations from a re-analysis of the deposited data

Results flagged for a closer look

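Among 33 sets of 4 OT values, 5 had 1 library so far from the other 3 that Dixon's ratio of gap to range passed its critical value for 4 libraries, where chance gives about 1 in 20. In the uterus these were Upk3a at 48.7 FPKM, Upk1a at 41.5 FPKM, Upk2 at 16.2 FPKM and the summed adipocyte genes at 11245 FPKM, all in OT1. In the ovary it was Upk3a at 0.344 FPKM in OT3, where the other 3 OT libraries were at 0. These values were in view when the genes were chosen, and where the other 3 libraries are at 0, as for Upk2 and Upk3a, the ratio is 1 for any value above 0. The 4 uterine values come from 1 library and are not independent of each other.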

How the results depend on the processing

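Of 227 alternative values of the members' log2 differences, 225 moved by less than the spread between replicates. This count is not a measure of robustness. Some alternatives, such as no filter or 1 fit of both tissues, leave an estimate unchanged by construction. In the uterus the spread includes OT1, so even the fall of Upk1a from 2.59 to 0.69 with OT1 and OT2 left out lay under it. The 2 that moved were Upk1b (-0.56) and Upk3b (-0.52) in the uterus with OT1 and OT2 left out, which also gave 60 lower calls and was chosen after seeing the data. With a pseudocount of 1, uterine calls were 202 higher and 57 lower, ovarian calls 16 and 2, and calls of the difference between tissues 105 and 29. With no filter on low values, there were 152 lower calls in the uterus, 99 higher and 60 lower in the ovary, and 298 and 140 for the difference between tissues. The replicate block gave 238 lower calls in the uterus and 34 in the ovary, and 1 member called in the uterus, Upk1a (3.22 ± 0.46, SE). Same-numbered OC and OT mice share only a number, since they are different animals, and the block leaves out OT4. The single fit of both tissues also called 1 member, Upk1a. Leaving out 1 library at a time gave 243 to 416 higher and 52 to 189 lower calls in the uterus (52 lower without OT1, 189 without OT4), 0 to 1 members called (Upk1a without OT3 or without OT4), and in the ovary 36 to 104 higher (104 without OT3) and 10 to 33 lower calls (24 without OC1, 33 without OT3, 19 without OT4). In the uterus the members then ranged over 1.49 to 3.35 for Upk1a, 0.22 to 1.51 for Upk1b, 0.29 to 1.23 for Upk3b, 1.18 to 2.01 for Upk2 and 2.23 to 2.98 for Upk3a. The last 2 have no value without OT1. In the ovary Upk1a ranged from -0.18 to 0.30, changing sign. The depth behind each FPKM is unknown, which limits what a listed 0 means, and with 3 and 4 mice a spread as wide as that of the OT uteruses leaves the group differences imprecise.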
